A study of Arabidopsis thaliana with 4 samples.

Results

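The genes described here are 9 nuclear genes of Arabidopsis thaliana whose transcripts mark sulfur limitation: LSU1, LSU2, LSU3 and LSU4, SDI1 and SDI2, SHM7, GGCT2;1 and BGLU28. They were chosen by their locus codes, with the difference between wild type and ClpD-OE in these data already known, so their values in that comparison are a description and carry no test. All 9 are listed in the deposited table of 31346 genes. RNA came from whole seedlings, 6 d old, of wild type (WT, 2 libraries) and of the line labelled #5, a constitutive ClpD overexpressor in the WT background, whose promoter the labels do not name (ClpD-OE, 2 libraries). ClpD is a chloroplast chaperone that serves the Clp protease and is made as a precursor in the cytosol. By their titles both ClpD-OE libraries come from line #5 alone, and effects of ClpD overexpression and of anything else carried by the line cannot be told apart. The labels leave unsaid whether replicates came from separate cultures, and p-values then measure only sample-to-sample spread, possibly technical. The comparison addresses how transcript levels differ in seedlings in which a chloroplast precursor is said to accumulate.

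Plants take up sulfate, activate it with ATP sulfurylase (APS), reduce it with APS reductase (APR) and sulfite reductase (SIR), and bind the sulfide to O-acetylserine to make cysteine, from which glutathione and methionine follow. When sulfur is short, O-acetylserine builds up, and a set of transcripts rises with it, among them those of LSU1, SDI1, SDI2, SHM7, GGCT2;1 and APR3, known as the O-acetylserine cluster. The transcription factor SLIM1 (EIL3) drives much of the low-sulfur response. In sulfur-replete seedlings these transcripts are known to be lower than when sulfur is short.

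Total counts lay between 20800842 and 23294451 per library, and 18940 genes were tested with edgeR's quasi-likelihood test. CLPD itself had 2849 and 3037 counts in WT against 41739 and 46316 in the overexpressor, with transgene and endogenous reads counted together. As a check of the label whole seedlings, 8 of 8 shoot markers had counts in every library, but root markers were uneven. PYK10 had at least 23030 counts in every library, SCR at least 430 and SHR at least 85. CASP1, ADF8 and NRT2.1 had between 8 and 48 counts. The root hair genes COBL9 and EXPA7 had at most 4 and 2 counts, and the root stem cell gene PLT1 at most 4. Outside this list, the root sulfate transporter gene SULTR1;1 had at most 2 counts and its relative SULTR1;2 at least 224. The summed level of the 9 root markers, nearly all of it PYK10, was 1251 and 1370 CPM in WT against 1286 and 1324 CPM in ClpD-OE. As this sum follows PYK10, it does not measure root content. Of the 6 root markers tested, 0 were called by either edgeR or DESeq2. By edgeR 1 had an unadjusted p under 0.05, as did 5348 of all 18940 tested genes. That marker, CASP1, had a log2 fold change of 1.17, and those of the other tested root markers ran from -0.88 (NRT2.1) to 0.23 (SCR). The summed level of the 8 shoot markers was 50372 and 46067 CPM in WT against 31813 and 32000 CPM in ClpD-OE. Nearly all of it came from the photosynthesis genes RBCS1A, LHCB2.1, CA1 and RCA, the 4 called lower. STM, KNAT1, FAMA and TMM were not called (log2 fold changes -0.32 to 0.27), so the shoot sum does not measure organ content. The part of either in the values below was not tested. In RNA from whole seedlings, fewer cells of a type and less RNA per cell cannot be told apart.

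All 9 marker genes were lower in both ClpD-OE libraries than in either WT library. Their log2 fold changes (ClpD-OE over WT) ran from -3.26 for SDI1 to -1.45 for SDI2, with a median of -2.12, while the median of all tested genes was 0.0011. At a Benjamini-Hochberg adjusted p under 0.05, edgeR called 7 of the 9 lower and 0 higher, against 3.91% of all tested genes called lower and 4.29% called higher. Groups did not overlap, with ClpD-OE lower, for 29.4% of all tested genes. As the genes were chosen on this comparison, nothing is read from either count. LSU4 and BGLU28, which were not called, had under 10 counts in each ClpD-OE library and entered the test only through their WT counts.

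**Figure D1:**
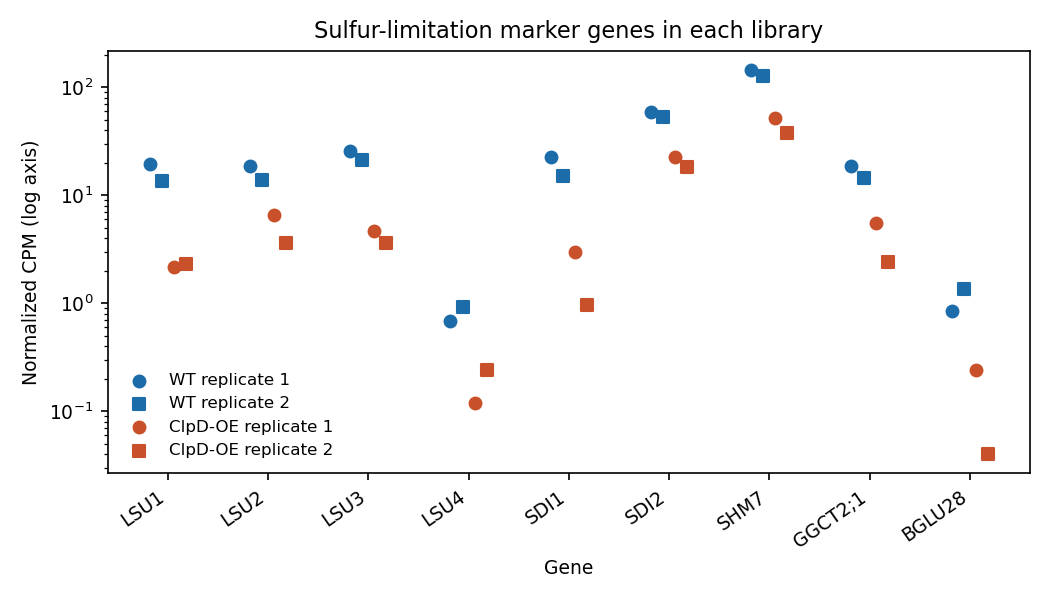
Normalized CPM (log axis) of the 9 marker genes in each of the 4 libraries, circles for replicate 1 and squares for replicate 2, blue for WT and red for ClpD-OE. For each gene both red points lie below both blue points, and SHM7 is the most abundant by CPM, a scale that does not correct for gene length.

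The LSU genes encode small plant-specific proteins with a coiled-coil structure, induced by sulfur shortage and known to bind many partner proteins. They form pairs in the genome. LSU3 and LSU1 are direct neighbours on the minus strand of chromosome 3, 1760 bases apart, and LSU4 and LSU2 are direct neighbours on the minus strand of chromosome 5, 1914 bases apart (RefSeq annotation of TAIR10.1). Coding sequences were 87.4% identical between LSU4 and LSU2 and 80.7% between LSU3 and LSU1. The longest stretch shared by transcripts of any LSU pair was 30 bases, between LSU4 and LSU2. How the authors' counting treated reads that match more than 1 gene is not given.

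LSU1 (AT3G49580) had 19.4 and 13.6 normalized CPM in the WT libraries (replicate 1 first, here and below) against 2.16 and 2.30 in those of the overexpressor. The ClpD-OE libraries were nearly equal, and the WT libraries differed by 1.43-fold. The difference between groups was 7.38-fold (log2 fold change -2.88, SE 0.229).

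LSU3 (AT3G49570) had 25.4 and 21.0 CPM in WT against 4.68 and 3.59 in the overexpressor, 5.59-fold lower (log2 fold change -2.48, SE 0.187). LSU2 (AT5G24660) had 18.8 and 13.7 CPM in WT against 6.52 and 3.63 in the overexpressor, 3.19-fold lower (-1.67, SE 0.315). Of the LSU genes it had the smallest difference, and its ClpD-OE libraries lay 1.79-fold apart. LSU4 (AT5G24655) was near the limit of detection, with 13 and 19 counts in WT against 3 and 6 in the overexpressor (log2 fold change -2.12, SE 0.542).

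Per transcript length, in the authors' FPKM, the order of the LSU genes differed between the groups. In WT, LSU3 was at 28.7 ± 3.04 and LSU1 at 26.9 ± 4.81 FPKM (SD, n = 2), levels that did not differ beyond their spread. LSU2 followed at 18.1 ± 3.55 and LSU4 at 0.975 ± 0.224. In ClpD-OE, LSU2 was at 6.64 ± 2.61, LSU3 at 5.99 ± 1.05 and LSU1 at 4.13 ± 0.26 FPKM, with LSU4 at 0.256 ± 0.125. There the first and second places overlapped between the libraries. The share of LSU1 in the summed LSU FPKM was 36.7% and 35.2% in WT against 20.4% and 29.3% in the overexpressor. The share of LSU2 was 25.0% and 23.4% in WT against 43.9% and 32.6% in ClpD-OE. The shares of LSU3 stayed between 34.8% and 39.7% in all 4 libraries. The summed FPKM was 82.6 and 66.8 in WT against 19.3 and 14.7 in ClpD-OE.

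**Figure D2:**
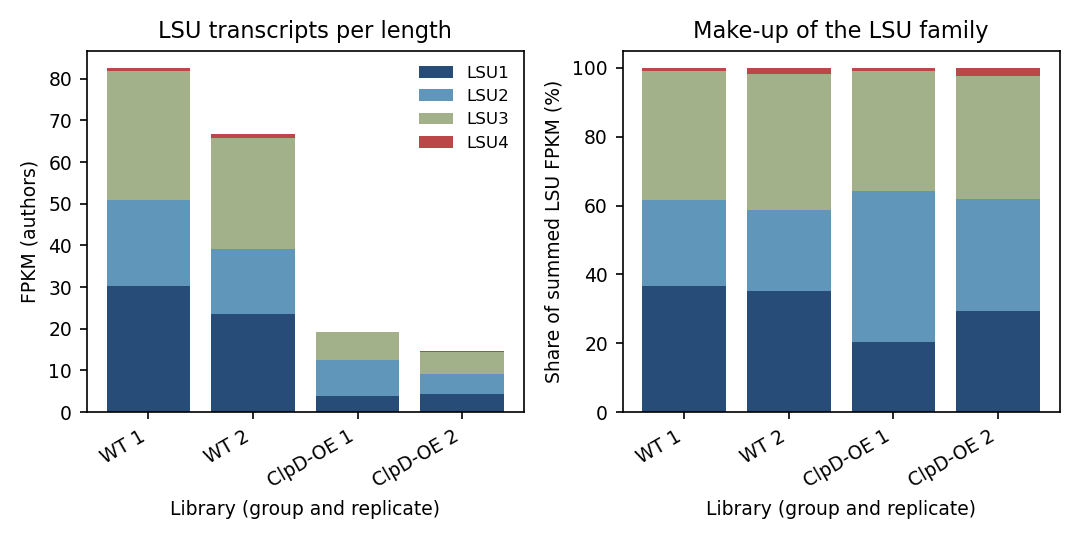
Stacked bars of the authors' FPKM for the 4 LSU genes in each library (left) and the share of each gene in their sum, in percent (right). The summed level is between 66.8 and 82.6 FPKM in WT and between 14.7 and 19.3 in ClpD-OE, and the LSU2 share is larger in both ClpD-OE libraries.

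Of the 4 genes that flank the LSU pairs, 1 was called lower and 0 higher, against 3.91% and 4.29% of all tested genes. With so few genes, nothing is read from these counts. The gene before LSU3, AT3G49560, annotated in the Tim17/Tim22/Tim23 import translocase family, had 59.7 and 65.8 CPM in WT against 69.3 and 69.6 in the overexpressor (log2 fold change 0.15, SE 0.0873, adjusted p by edgeR = 0.337). Its relative AT5G24650, before LSU4, had 41.9 and 42.3 CPM in WT against 52.4 and 48.2 in the overexpressor (0.26, SE 0.0882, adjusted p by edgeR = 0.138). Beyond LSU1 lies ATG13, an autophagy gene, which was 1.70-fold lower (-0.77, SE 0.128, adjusted p by edgeR = 0.0340). Beyond LSU2 lies EMB2820, annotated as a deaminase gene, at 0.24 (SE 0.0801, adjusted p by edgeR = 0.133).

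SDI1 and SDI2 encode tetratricopeptide repeat proteins related to the meiotic protein MS5. Both are known to repress aliphatic glucosinolate synthesis, SDI1 by binding the transcription factor MYB28, which spares sulfur when it is scarce. SDI1 (AT5G48850, listed as ATSDI1) had 22.7 and 15.2 CPM in WT against 2.96 and 0.969 in the overexpressor. It had the largest difference of the 9 genes, 9.59-fold (log2 fold change -3.26, SE 0.489). It also had the second widest spread in ClpD-OE, where replicate 1 exceeded replicate 2 by 3.05-fold. Without ClpD-OE replicate 1 the log2 fold change was -4.28, and without ClpD-OE replicate 2 it was -2.67.

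SDI2 (AT1G04770) had 58.5 and 53.1 CPM in WT against 22.4 and 18.3 in the overexpressor, 2.74-fold lower (log2 fold change -1.45, SE 0.131), the smallest difference and the smallest SE of the 9. Per length it remained far above SDI1. In WT, SDI2 was at 40.1 ± 1.63 FPKM and SDI1 at 14.3 ± 3.65 FPKM, and in ClpD-OE they were at 17.1 ± 2.25 and 1.74 ± 1.23 (SD, n = 2). The coding sequences of the pair were 64.1% identical, and their transcripts shared at most 17 bases in a row. Of their relatives, AT3G51280 had a log2 fold change of -0.054 (SE 0.162, adjusted p by edgeR = 0.861), and MS5 and AT5G44330 had at most 2 counts per library.

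The 300 bases before each gene's outermost annotated start were read from the RefSeq genome (TAIR10.1). These windows were searched on both strands for GAGAC, the core of the sulfur-responsive element SURE. They were also searched for the core of the UPE-box that SLIM1-type factors are known to bind. GAGAC was found in 4 of the 9 windows (LSU4, SDI1, GGCT2;1 and BGLU28) and in 8224 of 27443 windows of protein-coding genes. These exact letters were found in 0 of the 9 and in 0.0437% of all windows. Other forms of the UPE-box, and bases farther upstream, were not searched. The windows of SDI1 and GGCT2;1 are shown as those of called genes with GAGAC, whose match lies on the opposite strand and reads GTCTC in capitals here.
SDI1, minus strand of chr5:19807854-19808153: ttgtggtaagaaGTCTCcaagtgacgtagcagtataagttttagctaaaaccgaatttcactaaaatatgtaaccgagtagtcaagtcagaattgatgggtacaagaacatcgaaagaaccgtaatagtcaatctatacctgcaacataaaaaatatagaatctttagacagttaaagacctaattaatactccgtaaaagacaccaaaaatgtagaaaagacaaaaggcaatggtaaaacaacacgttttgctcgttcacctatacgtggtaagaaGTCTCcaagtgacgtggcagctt
GGCT2;1, minus strand of chr5:9164885-9165184: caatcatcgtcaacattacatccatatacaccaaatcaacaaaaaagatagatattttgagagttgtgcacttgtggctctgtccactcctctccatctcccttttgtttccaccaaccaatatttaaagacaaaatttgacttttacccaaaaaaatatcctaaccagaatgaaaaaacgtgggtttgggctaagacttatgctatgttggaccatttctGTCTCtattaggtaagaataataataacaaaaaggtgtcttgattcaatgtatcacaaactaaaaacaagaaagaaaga

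Both matches in the SDI1 window lie inside a direct repeat of 30 bases whose copies differ at 1 base, given in capitals in the copies below. The first copy runs from 298 to 269 bases before the start and the second from 33 to 4 bases before it.
SDI1 copy 1: gtggtaagaagtctccaagtgacgtAgcag
SDI1 copy 2: gtggtaagaagtctccaagtgacgtGgcag
An exact repeat of 25 bases, as within this pair, occurred in 0.878% of the 27443 windows. By the same search the longest repeat in the other 8 marker windows was between 10 and 14 bases. These matches are a description of the sequence and not of binding.

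SHM7 (AT1G36370), also called MSA1, is a serine hydroxymethyltransferase of the nucleus tied to the supply of S-adenosylmethionine. It had 144 and 127 CPM in WT against 51.3 and 37.9 in the overexpressor, 3.04-fold lower (log2 fold change -1.60, SE 0.167). Per length it was the most abundant of the 9 in both groups, at 57.9 ± 3.52 FPKM in WT against 22.3 ± 4.53 in ClpD-OE (SD, n = 2). Of the other serine hydroxymethyltransferase genes, 5 were tested, 1 was called lower and 1 higher, against 3.91% and 4.29% of all tested genes. With so few genes, nothing is read from these counts. SHM1, the mitochondrial enzyme of photorespiration, was 1.47-fold lower (log2 fold change -0.55, SE 0.0755, adjusted p by edgeR = 0.0261), and SHM3, of the plastid, was higher (log2 fold change 0.48, SE 0.0762, adjusted p by edgeR = 0.0312). SHM4, of the cytosol, had 173 and 159 CPM in WT against 142 and 153 in the overexpressor (-0.17, SE 0.0894, adjusted p by edgeR = 0.274).

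GGCT2;1 (AT5G26220) is a cytosolic gamma-glutamyl cyclotransferase of the ChaC type, which breaks down glutathione. It had 18.7 and 14.3 CPM in WT against 5.52 and 2.42 in the overexpressor, 4.15-fold lower (log2 fold change -2.05, SE 0.385). Its ClpD-OE libraries lay 2.28-fold apart and stayed below WT. Its relative GGCT2;2 had 51.7 and 55.8 CPM in WT against 50.3 and 49.3 in the overexpressor (-0.11, SE 0.0855, adjusted p by edgeR = 0.458). Of 7 tested genes of glutathione synthesis and breakdown, 0 were called by either edgeR or DESeq2. By edgeR 2 of the 7 had an unadjusted p under 0.05, as did 5348 of all 18940 tested genes. Their log2 fold changes lay between -0.42 and 0.27.

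BGLU28 (AT2G44460) is a beta-glucosidase that cleaves glucosinolates under sulfur shortage. It had 16 and 28 counts in WT against 6 and 1 in the overexpressor, and the log2 fold change of -2.93 (SE 0.710) rests on those few counts. Its groups did not overlap. Without ClpD-OE replicate 1 the remaining ClpD-OE library holds 1 count. BGLU30, which is also induced by sulfur shortage, had at most 5 counts in any library and was not tested, and BGLU29, BGLU31 and BGLU32 had 0 counts in all 4.

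The sulfate assimilation genes were lower in part. Of 27 tested transporter, reduction and cysteine synthesis genes, 9 were called lower and 0 higher by edgeR. Of all tested genes, 3.91% were called lower and 4.29% higher. The list's median log2 value was -0.27, against 0.0011 for all tested genes. This list too was chosen with earlier results of these data known, so its counts are a description. Of the 9 called genes, 7 belonged to sulfate reduction and cysteine synthesis, all 3 APS reductase genes among them. Without WT replicate 1, edgeR called fewer of the 27 lower. Without ClpD-OE replicate 1 or 2, every edgeR call in the whole table was lost, and DESeq2 called fewer of the 27. The shares of all tested genes called in these fits are given below with the marker genes, and nothing is read from the counts.

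APR1 (AT4G04610) had 177 and 132 CPM in WT against 50.6 and 36.2 in the overexpressor, 3.56-fold lower (log2 fold change -1.83, SE 0.218, adjusted p by edgeR = 0.0221). APR3 (AT4G21990), of the O-acetylserine cluster, had 335 and 328 CPM in WT against 137 and 101 in the overexpressor, 2.79-fold lower (-1.48, SE 0.156, adjusted p by edgeR = 0.0193). APR2 (AT1G62180), the main isoform in leaves, had 226 and 206 CPM in WT against 103 and 88.1 in the overexpressor, 2.26-fold lower (-1.18, SE 0.110, adjusted p by edgeR = 0.0188). In each of these genes the groups lay apart by more than the spread of their libraries.

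At cysteine synthesis, OASB, the plastid O-acetylserine (thiol) lyase, was 1.63-fold lower (log2 fold change -0.70, SE 0.0762, adjusted p by edgeR = 0.0193). Of the 5 serine acetyltransferase genes, which make O-acetylserine, 0 were called by edgeR. Like 5348 of all 18940 tested genes, 1 of the 5 had an unadjusted p under 0.05. That gene, SERAT3;2, named after its values were seen, had 5.78 and 3.39 CPM in WT against 2.48 and 2.22 in the overexpressor (log2 fold change -0.96, SE 0.309, adjusted p by edgeR = 0.121). Whether the steps differ was not tested. APS1, APS3 and SIR, named after their values were seen, were called lower at -0.90, -1.09 and -0.58 (edgeR adjusted p = 0.0499, 0.0472 and 0.0340), the first only just.

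Among 11 tested sulfate transporters 2 were called lower and 0 higher, against 3.91% and 4.29% of all tested genes. With so few genes, nothing is read from these counts. SULTR2;1, which moves sulfate through the vasculature, had 73.9 and 70.6 CPM in WT against 42.0 and 38.2 in the overexpressor (log2 fold change -0.85, SE 0.0909, adjusted p by edgeR = 0.0193). SULTR4;2, which releases sulfate from the vacuole and is itself induced at low sulfur, had 22.2 and 18.9 CPM in WT against 11.6 and 10.02 in the overexpressor (-0.93, SE 0.144, adjusted p by edgeR = 0.0302), a call lost on leaving out WT replicate 1 (edgeR adjusted p = 0.0728). SULTR1;1, the classical root marker of sulfur shortage, had 0 counts in both WT libraries and 1 and 2 in ClpD-OE, too few to test.

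**Figure D3:**
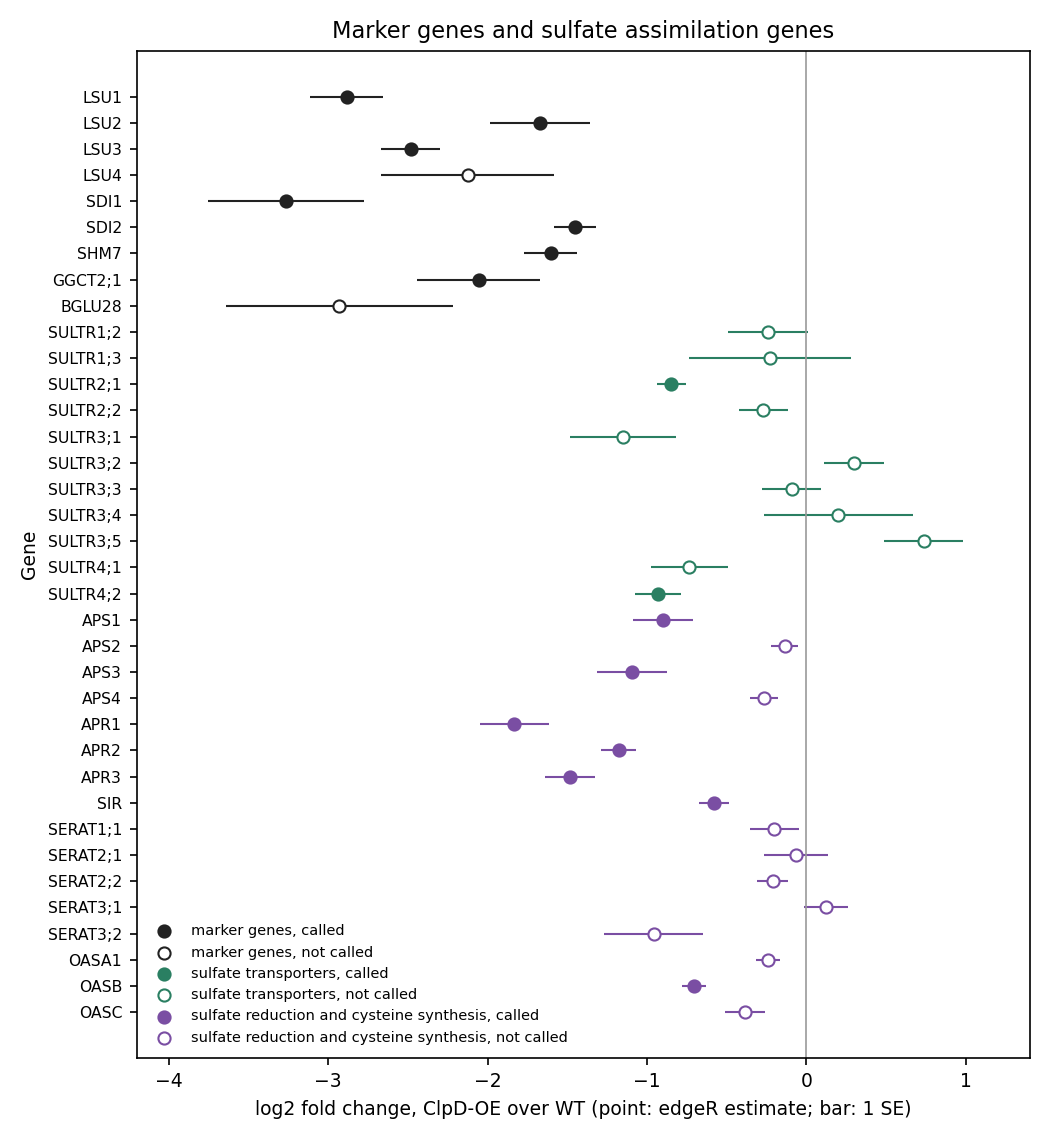
edgeR log2 fold changes (ClpD-OE over WT) with bars of 1 SE for the 9 marker genes, 11 sulfate transporter genes and 16 genes of sulfate reduction and cysteine synthesis, filled where called at an adjusted p under 0.05. The marker genes lie between -3.26 and -1.45, and APR1, APR2 and APR3 between -1.83 and -1.18.

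SLIM1 (AT1G73730, listed as EIL3), known to drive much of the low-sulfur response, had 14.8 and 14.7 CPM in WT against 13.6 and 16.4 in the overexpressor. Its log2 fold change was 0.022 (SE 0.136, adjusted p by edgeR = 0.938). The groups overlapped, and the sign of the value turned without ClpD-OE replicate 2 (-0.12). These are RNA levels, and the activity of the SLIM1 protein was not measured. Of the 4 tested regulators, SLIM1, EIN3, EIL1 and HY5, 0 were called by either edgeR or DESeq2, and 0 had an unadjusted p under 0.05.

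The aliphatic glucosinolate genes, the pathway that SDI1 and SDI2 repress, were not called in either direction. Of 17 tested, 0 were called by either edgeR or DESeq2. By edgeR 8 of the 17 had an unadjusted p under 0.05, as did 5348 of all 18940 tested genes. The median log2 fold change of all 17 was -0.40, and 16 of the 17 values were negative. Both ClpD-OE libraries lay below both WT libraries for 16 of the 17 genes and above them for 1. Of all 18940 tested genes, 5577 lay below and 5775 above. MYB28, the main activator of the pathway, had 35.9 and 34.98 CPM in WT against 37.9 and 39.9 in the overexpressor (0.14, SE 0.0882, adjusted p by edgeR = 0.377). MYB29 had 23.2 and 15.3 CPM in WT against 14.4 and 14.7 in the overexpressor (-0.40, SE 0.211, adjusted p by edgeR = 0.281). The WT libraries themselves differed here: 17 of the 17 genes were lower in WT replicate 2 than in replicate 1, by a median log2 value of -0.40. Without WT replicate 2, edgeR called 10 of the 17 lower, MYB29 among them (-0.67, adjusted p = 0.0323), and without WT replicate 1 it called 0, with MYB29 at -0.077. With library totals in place of TMM scaling MYB29 was at -0.17.

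Replicates of a group also differed in the marker genes. In ClpD-OE, 7 of the 9 were lower in replicate 2 than in replicate 1, by a median log2 value of -0.44 over the 9, against 49.8% of all tested genes. The exceptions were LSU1 and LSU4. Of the 27 sulfate assimilation genes 22 were lower in ClpD-OE replicate 2, by a median of -0.15. In WT, 7 of the 9 were lower in replicate 2, by a median of -0.27, and the exceptions were LSU4 and BGLU28, the genes with the fewest counts. These differences within a group were smaller than the difference between groups in all 9 genes.

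With 1 library left out, the log2 fold change of each of the 9 genes stayed negative in all 4 fits. This follows from groups that do not overlap in any of the 9 genes, so the constant sign is no separate support. Without WT replicate 1, edgeR called LSU1, LSU3, SDI2 and SHM7, and LSU2, SDI1 and GGCT2;1 were no longer called, with 1.64% of all tested genes called lower. Without WT replicate 2 the 7 genes called were the same as with all libraries, with 8.25% of all tested genes called lower. Without ClpD-OE replicate 1 or 2, edgeR called 0 of the 9 and 0 genes in all, although 8 and 9 of the 9 passed 0.05 unadjusted, as did 3603 of 19291 and 3034 of 19276 tested genes. DESeq2 then called 7 and 6 of the 9 lower, against 2.18% and 1.17% of all tested genes. In each of these fits the group left with 1 library is assumed to vary like the other. As with all libraries, nothing is read from these counts.

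**Figure D4:**
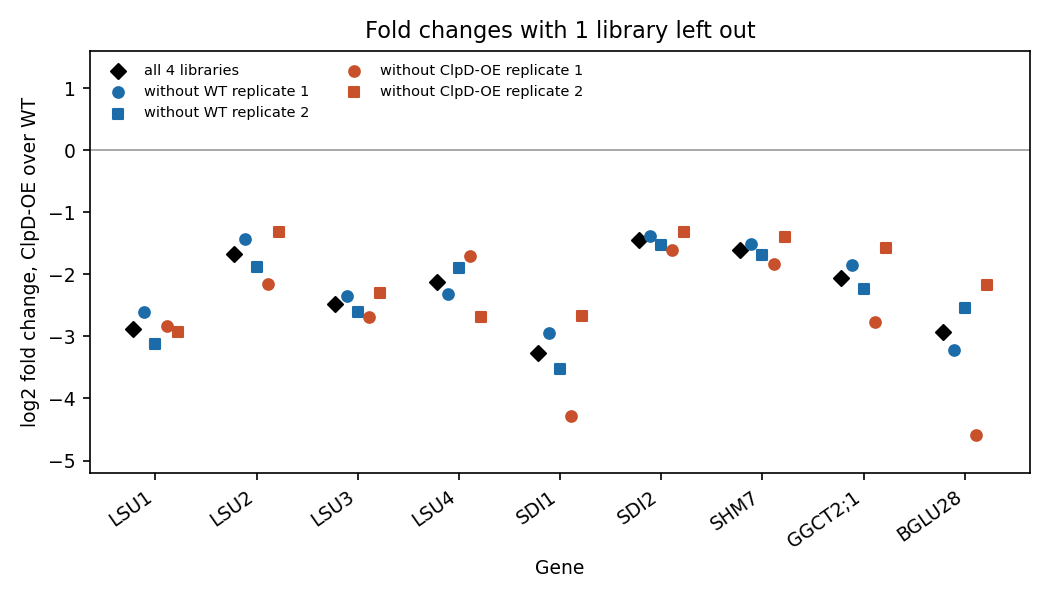
edgeR log2 fold changes (ClpD-OE over WT) of the 9 marker genes with all 4 libraries (diamonds) and with each library left out in turn. Every point is below 0, which follows from groups that do not overlap. SDI1 moves from -2.67 to -4.28 with the choice of ClpD-OE library.

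Genes outside the list were ranked by how near their profile came to that of the markers, as the root mean square distance between centred log2 CPM over the 4 libraries and the median profile of the 9 genes. The nearest of them was AT4G20820, annotated as a FAD-binding berberine family gene, at a distance of 0.148. It had 19.8 and 17.9 CPM in WT against 5.92 and 4.24 in the overexpressor. CRK24, a cysteine-rich receptor-like kinase gene, AT4G18650, AT3G28600 and MRU1 (mto 1 responding up 1) followed, at 0.176 to 0.198. All of these were lower in both ClpD-OE libraries, which follows from choosing them by this profile and is no finding. CRK24, AT4G18650 and AT3G28600 had at most 16 counts in any library and at most 5 in ClpD-OE. They entered the test only through their WT counts. Among the markers themselves the distance ran from 0.198 for GGCT2;1 to 0.744 for SDI1.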

How the data were processed

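Poly(A)-selected RNA of whole seedlings was sequenced in 4 libraries, per the labels' protocols. The submitters' processing notes name, without role or order, RSEM, HISAT2, DESeq2, StringTie 1.3.1, Bowtie2 2.2.8, fastp 0.18.0 and the build TAIR10. Whether strand was used is not given in the sources, so antisense overlaps cannot be told apart. The authors deposited estimated counts per gene, whole numbers that rounding did not change, and FPKM values (scaled for length and depth). FPKM were used here mainly to compare levels between genes. Where FPKM of both groups are given, they lack the TMM scaling of the CPM. The TMM factors were 0.907 and 0.943 in WT against 1.07 and 1.09 in ClpD-OE. The log2 fold change and p-value columns are the authors' deposited comparison.

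Genes were tested with edgeR 4.0.16 (R 4.3.3; TMM, filterByExpr by group, glmQLFit and glmQLFTest at their defaults, genotype as the only term, Benjamini-Hochberg over 18940 genes). The SE is the size of the log2 fold change divided by the square root of F. CPM use TMM-scaled library sizes. Replicates differed beyond sampling noise (chi-square per degree of freedom 18.6 in WT and 10.2 in ClpD-OE). Sequences came from the RefSeq genome and annotation of TAIR10.1, matched by locus code. PCR copies were not marked by molecular identifiers, so the counts may include them.

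Members and gene lists were chosen with earlier results of these data known. Named genes are the 9 markers, up to 4 called genes with the smallest p per list, 11 genes fixed by name and the 5 nearest profiles. Other genes named in the text, the LSU neighbours and single root markers included, were chosen after their values were seen. Alternatives were other scalings, filters, DESeq2 1.42.0, the newer quasi-likelihood fit, a replicate block and leaving out each library.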

Additional observations from a re-analysis of the deposited data

How the results depend on the processing

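The direction of the 9 marker genes was negative under every alternative tried. As their groups did not overlap, this was largely fixed in advance and is no separate support. A minimum of 1 CPM in 2 libraries removed LSU4 and BGLU28 before the fit, so 7 remained. edgeR called 7 lower under both other scalings, both filters and the newer fit, and DESeq2 and the replicate block called 8, with BGLU28 added. Leaving out single libraries gave 0 to 7 of the 9 and 0 to 13 of the 27 sulfate assimilation genes called lower, DESeq2 included (added after the data were seen). Over all genes edgeR then gave 0 to 1602 lower and 0 to 1179 higher. DESeq2 gave 303 lower without WT replicate 1, 1065 without WT replicate 2, 421 without ClpD-OE replicate 1 and 226 without ClpD-OE replicate 2, where 3 of the 27 were called. DESeq2 with all libraries called 1217 lower. The numbers 1 and 2 are only labels here, as nothing pairs the libraries, although the replicate differences of the groups correlated at 0.265 across genes. With the replicate block 1885 genes were called lower and 1628 higher, and 4 glucosinolate genes lower. Without single libraries 0 to 10 of those were. Library totals in place of TMM shifted the median of all genes by 0.225 and gave 577 lower and 2699 higher against 740 and 812, and GGCT2;2 (0.11) and SHM4 (0.053) then turned sign, while SLIM1 ranged from -0.12 to 0.15 without single libraries. The cause was not tested in any of these. Few counts limit LSU4 and BGLU28, and with 2 libraries per group a single library can decide a call.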

Other observations

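In the deposited table the name cells of 22 genes hold bare numbers in place of symbols, among them APR1 (45383), APR2 (45384) and APR3 (45385), so that a search of the table by symbol misses the APS reductase genes. They were identified here by locus code.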
